A study of Bombyx mori with 12 samples.

Results

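Transposon RNA was followed in BmN4 cells after knockdown of Siwi, over every transposon entry of the deposited RNA table that averaged at least 1 RPKM (reads per 1000000 library reads and per kilobase of entry) over its 6 libraries. That minimum left 490 entries of the 1716 listed. BmN4 cells descend from ovary tissue of the silkworm, Bombyx mori, and are grown as a line. The groups were SiwiKD (siRNA against Siwi), MaelKD (siRNA against Mael) and LucKD (siRNA against luciferase, the control), each with 2 RNA libraries made from poly-A RNA. All cells received 500 pmol of siRNA by nucleofection, were transfected again, and were collected after 10 days in culture at 26 °C. A single cell line was used. The labels do not state that the libraries within a group had separate cultures as their source, so the p-values cover only the variation among the libraries at hand, possibly technical. The tables list transposons only, so the loss of Siwi itself and markers of the line were not checked here.

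Siwi is a PIWI protein of the silkworm. PIWI proteins bind PIWI-interacting RNAs (piRNAs), small RNAs whose sequence guides the protein to matching transposon transcripts, which are then cut. In BmN4 cells Siwi works in an amplification cycle with a second PIWI protein, Ago3, in which each cut transcript can become a new piRNA. Mael (Maelstrom) is another factor of the piRNA pathway in animal germ cells. The entries fall into classes by how they move: LTR retrotransposons and LINEs copy themselves through RNA with their own reverse transcriptase, SINEs are short elements that borrow that of LINEs, and DNA transposons are cut and pasted by a transposase or, for Helitrons, copied by a rolling circle.

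Of the library totals recovered from the RPKM values, transposon entries took 3.49% and 3.12% in SiwiKD libraries. They took 3.08% and 2.77% in MaelKD libraries and 2.57% and 2.47% in LucKD libraries. The totals lay between 32.5 and 45.2 M reads, and which reads they count is not given in the sources used here. Both SiwiKD shares lay above both LucKD shares, and with 2 libraries against 2 the smallest two-sided exact permutation p is 0.333. In bulk RNA, fewer cells carrying a transcript and less of it per cell cannot be told apart. The chi-square between the libraries of a group averaged 75.8 per entry in SiwiKD, 55.0 in MaelKD and 64.3 in LucKD. Entries with many reads weigh most in this mean. It therefore does not show how far counting error matters in entries with few reads.

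Of the 490 entries, 119 (24.3%) rose and 15 (3.06%) fell in SiwiKD against LucKD cells, by limma on log2(RPKM + 1) with a Benjamini-Hochberg adjusted p under 0.05. Rescaling each library to a trimmed mean of the entries turned this split into 90 higher and 44 lower, and shifted the median log2 change of all 490 entries to -0.02, against 0.15 as deposited. Because this scaling uses the same entries, it takes out any shift that most of them share, and a median near 0 follows from it. Both SiwiKD values lay above both LucKD values in 201 entries (41.0%) and below both in 97 (19.8%), and the groups did not overlap for any of the 134 entries called. Among the entries that rose, 88 had at least 2-fold and 19 at least 4-fold the LucKD mean. Of the entries that fell, 5 were at least 2-fold lower. Over entries with a LucKD mean of at least 1 RPKM, these counts were 68, 16 and 5. The count of rises was 79 without LucKD replicate 1. The count of falls was 5 without LucKD replicate 2, 6 without SiwiKD replicate 1 and 5 when the MaelKD libraries did not enter the fit.

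**Figure D1:**
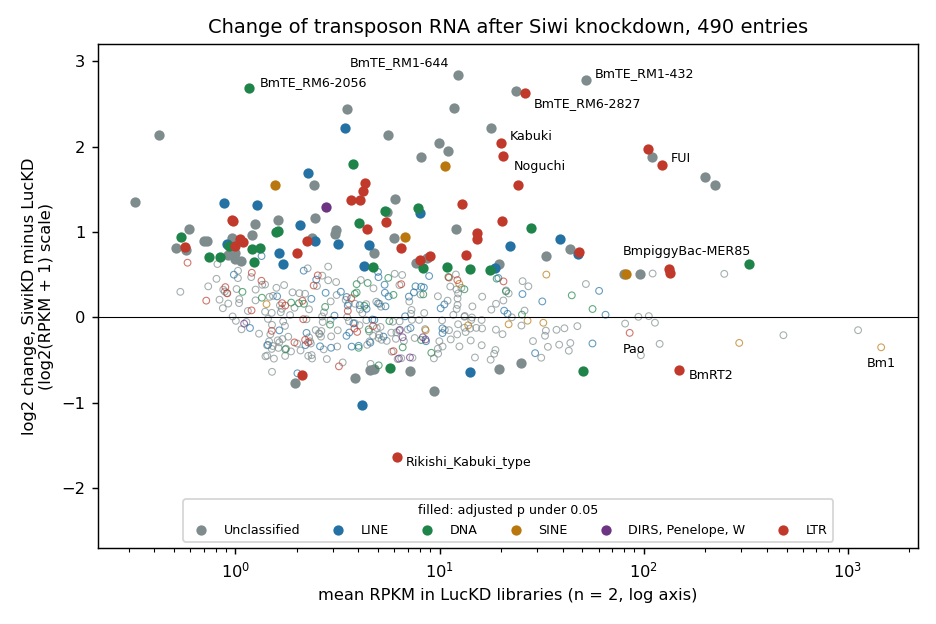
Log2 change (SiwiKD minus LucKD, log2(RPKM + 1) scale) of 490 entries against their mean RPKM in LucKD libraries (log axis), with colours for classes and filled points for an adjusted p under 0.05. Rises of over 2 on the log2 scale occur in entries with LucKD means below and above 10 RPKM, and the largest fall is Rikishi_Kabuki_type at -1.63.

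LTR retrotransposons had the largest share of rises among classes with more than 1 tested entry. Of 63 entries, 31 rose and 3 fell, against 24.3% and 3.06% of all entries, and the median log2 change was 0.52 (0.36 after trimmed-mean scaling, where 27 rose and 4 fell). Among the 56 LTR entries with a LucKD mean of at least 1 RPKM, 28 rose and 3 fell. Rises came from every LTR superfamily: 13 of 28 Gypsy entries, 8 of 19 Pao entries (6 after trimmed-mean scaling), 2 of 5 Copia entries (1 after scaling) and 8 of 11 entries without a superfamily (7 after scaling). The 3 falls were all Gypsy entries. Except for Copia, these superfamily counts include entries with LucKD means under 1 RPKM, which entered the test through the knockdown libraries.

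BmTE_RM6-2827, a Gypsy entry of 1575 bp, had 158 and 176 RPKM in SiwiKD libraries, 38.4 and 28.7 RPKM in MaelKD libraries, and 24.4 and 27.9 RPKM in LucKD libraries. Its SiwiKD values, from 8087 and 11251 reads, stood clear of all 4 other libraries, and its log2 change of 2.63 ± 0.19 (SE) against LucKD was the largest rise of the class (limma, Benjamini-Hochberg adjusted p = 1.9e-12). Kabuki, a Gypsy element known from the silkworm W chromosome, had 83.4 and 83.1 RPKM in SiwiKD libraries, 19.2 and 17.7 RPKM in MaelKD libraries, and 15.9 and 23.9 RPKM in LucKD libraries. The SiwiKD libraries were nearly equal, while MaelKD and LucKD values overlapped. Kabuki rose by 2.04 ± 0.19 on the log2 scale (limma, Benjamini-Hochberg adjusted p = 6.98e-10).

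Noguchi, a Pao-type element, was close to Kabuki in level. It had 76.9 and 78.0 RPKM in SiwiKD libraries, 22.4 and 17.7 RPKM in MaelKD libraries, and 17.1 and 23.6 RPKM in LucKD libraries, a log2 change of 1.89 ± 0.19 against LucKD (limma, Benjamini-Hochberg adjusted p = 2.46e-09). The internal part of LTR-2_BM, entered as LTR-2_BM-I, had 396 and 431 RPKM in SiwiKD libraries, 237 and 184 RPKM in MaelKD libraries, and 101 and 108 RPKM in LucKD libraries (log2 change 1.97 ± 0.20). Its terminal repeat, entered as LTR-2_BM-LTR, rose by 1.57 ± 0.20, so both parts of the element rose. The 3 groups of LTR-2_BM-I did not overlap, with MaelKD between the others.

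FUI was less even. It had 608 and 295 RPKM in SiwiKD libraries, 148 and 191 RPKM in MaelKD libraries, and 126 and 119 RPKM in LucKD libraries. SiwiKD replicate 1 lay well above replicate 2, and both lay above every other library (log2 change 1.78 ± 0.24, limma, Benjamini-Hochberg adjusted p = 6.26e-07). The unclassified entry BmTE_RM5-1103 had the same unevenness, with 961 and 452 RPKM in SiwiKD libraries, 247 and 298 RPKM in MaelKD libraries, and 236 and 212 RPKM in LucKD libraries. Whether FUI and BmTE_RM5-1103 share reads was not tested.

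Mag, a Gypsy element known from the silkworm, was low: 3.49 and 3.09 RPKM in SiwiKD libraries, against 0.912 and 1.03 RPKM in LucKD libraries (log2 change 1.12 ± 0.25). BmRT10, another Gypsy element, had 3.30 and 3.34 RPKM in SiwiKD libraries, against 0.989 and 0.927 RPKM in LucKD libraries, and the Pao element Inoki had 12.2 and 11.9 RPKM against 3.71 and 4.44 RPKM. In all 3 the groups stood apart. Mag and BmRT10 had LucKD means under 1 RPKM, so they entered the test through the knockdown libraries, where they were high, and their calls are given as a description. The 2 abundant Yamato entries were different. Yamato had 213 and 184 RPKM in SiwiKD libraries, 189 and 216 RPKM in MaelKD libraries, and 125 and 142 RPKM in LucKD libraries, a log2 change of 0.57 ± 0.19 that lost its call after trimmed-mean scaling (0.36), without LucKD replicate 1 (0.48) and without SiwiKD replicate 1 (0.46). YAMATO_BM, a shorter entry that may share its reads, rose by 0.52 ± 0.20 and lost its call after the same scaling (0.31) and without the same libraries (0.34 and 0.41).

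Pao, the founding element of its superfamily, did not pass the test. It had 81.6 and 68.3 RPKM in SiwiKD libraries, 66.8 and 102 RPKM in MaelKD libraries, and 75.9 and 94.5 RPKM in LucKD libraries, and these overlapped. It carried the most control Siwi-bound small RNA per kilobase of all 490 entries, 10743 RPM (reads per 1000000 library reads) per kb. The 2 elements named after Kabuki also went their own ways. Rikishi_Kabuki_type had 1.04 and 1.63 RPKM in SiwiKD libraries, 2.16 and 2.02 RPKM in MaelKD libraries, and 5.92 and 6.43 RPKM in LucKD libraries. It had the largest fall of all entries, -1.63 ± 0.23 on the log2 scale (limma, Benjamini-Hochberg adjusted p = 1.58e-06), resting on 154 and 301 reads in SiwiKD libraries against 1193 and 968 in LucKD libraries. Suzuka_Kabuki_type had 2.28 and 1.75 RPKM in SiwiKD libraries, against 1.39 and 2.12 RPKM in LucKD libraries, and its groups overlapped.

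The other 2 LTR falls were smaller and less steady. BmRT2 had 88.8 and 96.2 RPKM in SiwiKD libraries, against 102 and 197 RPKM in LucKD libraries, a log2 change of -0.61 ± 0.22 that was -0.15 without LucKD replicate 2 and lost its call there and without SiwiKD replicate 1 (-0.56). BmRT6 had 0.889 and 0.978 RPKM in SiwiKD libraries, against 1.71 and 2.52 RPKM in LucKD libraries (log2 change -0.67 ± 0.25). It lost its call without LucKD replicate 2 (-0.49), without SiwiKD replicate 1 (-0.64) and without SiwiKD replicate 2 (-0.71).

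**Figure D2:**
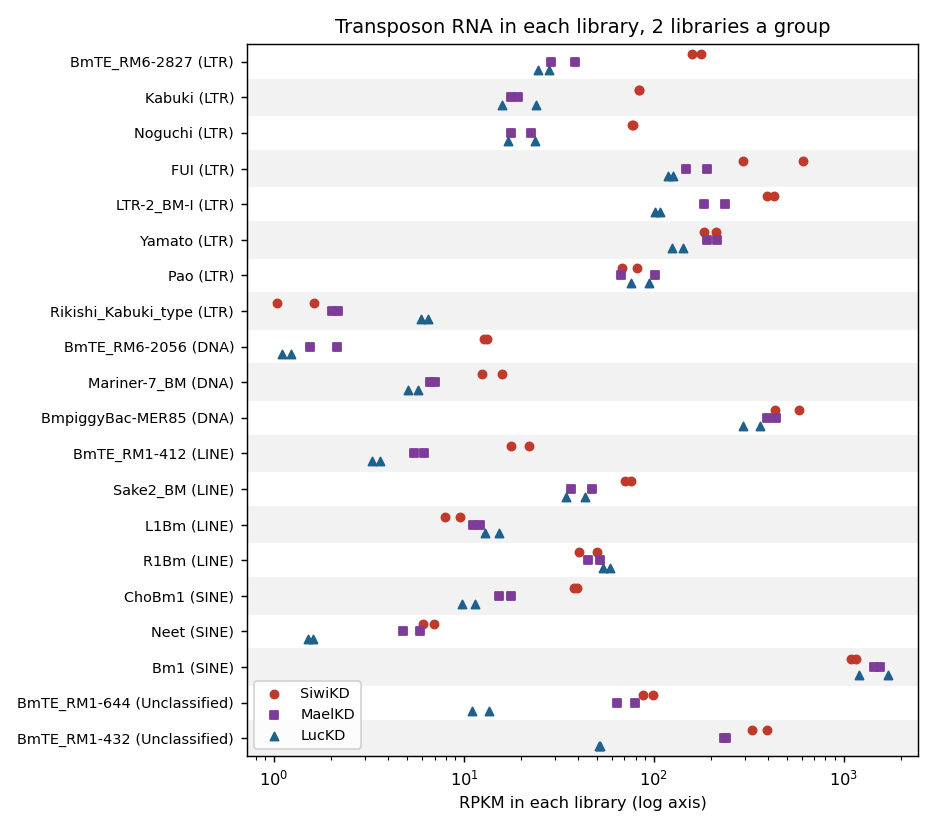
RPKM (log axis) of 20 named entries in each RNA library, 2 libraries a group, with SiwiKD as circles, MaelKD as squares and LucKD as triangles. Kabuki, Noguchi, BmTE_RM6-2827 and BmTE_RM6-2056 have SiwiKD values far to the right of both other groups. For Neet and BmTE_RM1-644 the MaelKD values lie near the SiwiKD ones, and for BmTE_RM1-432 they lie between the other groups.

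Of 53 DNA transposon entries, 21 rose (39.6%) and 2 fell (3.77%), beside 24.3% and 3.06% of all entries, and their median log2 change was 0.33 (0.17 after trimmed-mean scaling, where 12 rose and 4 fell). With a LucKD mean of at least 1 RPKM, 17 of 49 rose and 2 fell. The Tc1/mariner group held the most rises, whose small elements encode a single transposase: 12 of its 21 entries rose (8 after scaling) and none fell. Of 12 TcMar-Mariner entries 7 rose (4 after scaling), and of 5 TcMar-m44 entries 3 rose. Outside that group, 4 of 9 Sola entries rose (3 after scaling), and 2 of 6 Harbinger entries rose and 1 fell (none rose and 2 fell after scaling). Sola and Harbinger hold too few entries for their shares to be set firmly beside the 24.3% of all entries. The TcMar-Mariner and Harbinger counts, and so the Tc1/mariner count, include entries with LucKD means under 1 RPKM. These entered the test through the knockdown libraries, and all DNA entries of this kind rose.

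BmTE_RM6-2056, a TcMar-m44 entry of 2010 bp, had 12.7 and 13.2 RPKM in SiwiKD libraries, 2.15 and 1.55 RPKM in MaelKD libraries, and 1.10 and 1.22 RPKM in LucKD libraries. These values rest on 829 and 1077 reads in SiwiKD libraries, against 98 and 81 reads in LucKD libraries, where it was nearly silent. The RPKM ratio of SiwiKD to LucKD was 11.1, the log2 change 2.69 ± 0.22 (limma, Benjamini-Hochberg adjusted p = 4.96e-11). BmTE_RM6-5630, of the same superfamily, had 15.8 and 15.3 RPKM in SiwiKD libraries, 14.95 and 13.8 RPKM in MaelKD libraries, and 3.83 and 3.70 RPKM in LucKD libraries. Both knockdowns thus stood well above control for this entry, whereas the MaelKD values of BmTE_RM6-2056 lay near those of LucKD. The Sola entries BmTE_RM6-8256 (20.0 and 21.0 RPKM in SiwiKD libraries, against 7.47 and 8.24 RPKM in LucKD libraries) and BmTE_RM1-605 (10.2 and 9.43 RPKM against 3.44 and 4.64 RPKM) rose by 1.28 ± 0.19 and 1.11 ± 0.21.

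Mariner-7_BM had 15.9 and 12.5 RPKM in SiwiKD libraries, 6.62 and 7.05 RPKM in MaelKD libraries, and 5.09 and 5.73 RPKM in LucKD libraries (log2 change 1.24 ± 0.20). Mariner-3_BM had 4.30 and 4.22 RPKM in SiwiKD libraries, against 1.36 and 1.87 RPKM in LucKD libraries (log2 change 1.01 ± 0.23). Both groups stood apart in each. Mariner-2_BM and Mariner-4_BM did not pass the test, although their control small RNA, 8270 and 3690 RPM per kb, exceeded that of Mariner-7_BM (599) and Mariner-3_BM (578).

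BmpiggyBac-MER85, a relative of the piggyBac element used as a gene vector, was the fourth highest entry of LucKD cells. It had 582 and 433 RPKM in SiwiKD libraries, 394 and 438 RPKM in MaelKD libraries, and 294 and 360 RPKM in LucKD libraries, without overlap between SiwiKD and LucKD. Its log2 change of 0.62 ± 0.21 lost its call after trimmed-mean scaling (0.41), without either LucKD replicate 1 (0.48) or SiwiKD replicate 1 (0.41). The 2 falls, BmTE_RM6-1226 (Harbinger, 28.6 and 35.5 RPKM in SiwiKD libraries, against 43.4 and 56.9 RPKM in LucKD libraries) and BmTE_RM6-3962 (hAT-Blackjack, 3.51 and 3.33 RPKM against 6.32 and 5.08 RPKM), had log2 changes of -0.62 and -0.60. The first lost its call when LucKD replicate 2 (-0.43) or SiwiKD replicate 1 (-0.47) was left out, the second without LucKD replicate 1 (-0.46), SiwiKD replicate 1 (-0.62) or SiwiKD replicate 2 (-0.57).

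Among LINEs, 17 of 78 entries rose (21.8%) and 2 fell (2.56%), near the 24.3% and 3.06% of all entries, and the median log2 change was 0.23 (0.06 after trimmed-mean scaling, where 13 rose and 4 fell). With a LucKD mean of at least 1 RPKM, 15 of 75 LINE entries rose and 2 fell. In the CR1 clade 9 of 19 entries rose (8 after scaling), and in RTE-BovB 4 of 10 (3 after scaling). Of these RTE-BovB rises, BmTE_RM6-1716 and BmTE_RM1-396 had LucKD means under 1 RPKM and entered the test through the knockdown libraries. In Jockey none of 14 and in R1 none of 8 passed the test in either direction as deposited (1 R1 entry fell after scaling). Jockey-BMC1 is counted apart from Jockey, and 1 of its 3 entries, L1Bm, fell. I-R1 is counted apart from R1, and none of its 3 entries was called.

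BmTE_RM1-412, a CR1 entry of 1212 bp, had 17.7 and 22.0 RPKM in SiwiKD libraries, 5.46 and 6.16 RPKM in MaelKD libraries, and 3.29 and 3.63 RPKM in LucKD libraries (log2 change 2.22 ± 0.20, limma, Benjamini-Hochberg adjusted p = 3.31e-10). The 3 groups did not overlap. BmTE_RM6-4101, a CR1-L2 entry, had 9.50 and 8.64 RPKM in SiwiKD libraries, 3.78 and 4.70 RPKM in MaelKD libraries, and 1.31 and 3.21 RPKM in LucKD libraries (log2 change 1.69 ± 0.24). BmTE_RM6-231, another CR1 entry, rose by 1.23 ± 0.21 (20.7 and 19.7 RPKM in SiwiKD libraries, against 7.94 and 8.14 RPKM in LucKD libraries). The 2 CR1-Daphne elements, Sake2_BM and Takuya, were more abundant: Sake2_BM had 76.1 and 70.6 RPKM in SiwiKD libraries, against 34.2 and 43.2 RPKM in LucKD libraries, and Takuya had 41.2 and 39.3 RPKM against 20.2 and 24.2 RPKM. Their log2 changes were 0.91 ± 0.19 and 0.84 ± 0.18.

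The 2 largest RTE-BovB rises, BmTE_RM6-1716 (3.75 and 3.70 RPKM in SiwiKD libraries, against 1.01 and 0.742 RPKM in LucKD libraries) and BmTE_RM1-228 (4.85 and 4.52 RPKM against 1.38 and 1.17 RPKM), had log2 changes of 1.34 and 1.32. They had little control Siwi-bound small RNA, 1.25 and 5.75 RPM per kb. In both, the SiwiKD values lay above the LucKD values in each library. BmTE_RM6-1716 had a LucKD mean of 0.876 RPKM and entered the test through the knockdown libraries, so its call is given as a description.

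R1Bm and R2Bm insert into ribosomal RNA genes, and TRAS1, TRAS3 and SART1 insert into telomeric repeats. R1Bm had 50.4 and 40.3 RPKM in SiwiKD libraries, against 58.4 and 53.7 RPKM in LucKD libraries, and R2Bm had 74.1 and 58.9 RPKM against 70.9 and 58.9 RPKM. SART1 had 14.2 and 11.5 RPKM in SiwiKD libraries, against 9.32 and 8.44 RPKM in LucKD libraries, a log2 change of 0.48 ± 0.20 (limma, Benjamini-Hochberg adjusted p = 0.0637). TRAS3 had 20.1 and 22.8 RPKM in SiwiKD libraries, against 24.2 and 34.4 RPKM in LucKD libraries (log2 change -0.42 ± 0.19), and TRAS1 had 8.23 and 9.52 RPKM against 8.56 and 12.1 RPKM (-0.18 ± 0.21). The SiwiKD values lay above LucKD for SART1, below it for TRAS3 and overlapped it for TRAS1. None of these 5 elements passed the test as deposited. Of LINEs that fell, L1Bm had 9.56 and 7.92 RPKM in SiwiKD libraries, against 12.9 and 15.3 RPKM in LucKD libraries (log2 change -0.63 ± 0.19), and lost its call without LucKD replicate 2 (-0.51) and without SiwiKD replicate 2 (-0.51). BmTE_RM5-3672, at 0.587 and 3.01 RPKM in SiwiKD libraries against 3.71 and 4.63 RPKM in LucKD libraries, rested on 5 and 32 reads in SiwiKD libraries and lost its call without SiwiKD replicate 1 (-0.36) and without LucKD replicate 2 (-0.90).

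**Figure D3:**
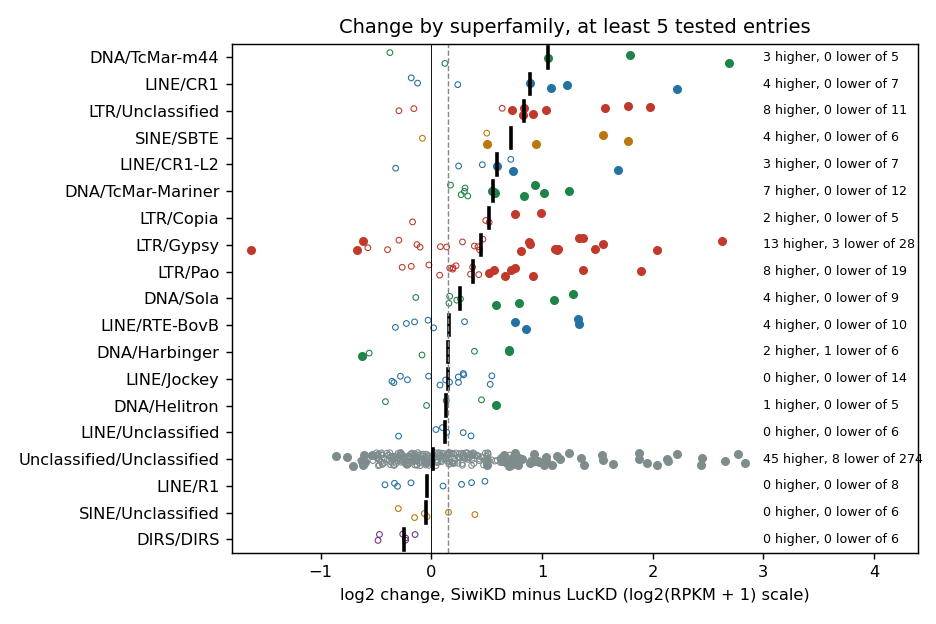
Log2 change (SiwiKD minus LucKD) of entries in each superfamily with at least 5 tested entries, coloured by class, filled where the adjusted p was under 0.05; black bars are medians, the dashed line is the median of all 490 entries (0.15) and text gives the counts. TcMar-m44, CR1 and LTR entries without a superfamily have the highest medians, and no Jockey, R1 or DIRS entry passed the test.

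Of 14 entries labelled SINE, 4 rose (28.6%, or 3 entries after trimmed-mean scaling) and none fell. The share of rises was near the 24.3% of all entries, and the median log2 change was 0.06 (-0.11 after scaling). All 4 rises were among the 6 entries of the SBTE group, and 3 of them are long for a SINE. ChoBm1, 5412 bp, had 39.2 and 37.9 RPKM in SiwiKD libraries, 17.6 and 15.3 RPKM in MaelKD libraries, and 9.76 and 11.4 RPKM in LucKD libraries (log2 change 1.78 ± 0.19, limma, Benjamini-Hochberg adjusted p = 4.19e-09). Neet, 4046 bp, had 6.92 and 6.07 RPKM in SiwiKD libraries, 5.87 and 4.79 RPKM in MaelKD libraries, and 1.52 and 1.60 RPKM in LucKD libraries (log2 change 1.55 ± 0.22). ChoBm1 was graded across the groups, while the MaelKD values of Neet lay just under its SiwiKD values. Bm1modoki, 1178 bp, had 12.2 and 15.8 RPKM in SiwiKD libraries, against 7.05 and 6.41 RPKM in LucKD libraries (log2 change 0.94 ± 0.20).

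Bm1, the abundant tRNA-like SINE of the silkworm, was the highest entry of LucKD cells and did not pass the test. It had 1154 and 1091 RPKM in SiwiKD libraries, 1445 and 1545 RPKM in MaelKD libraries, and 1708 and 1198 RPKM in LucKD libraries, a log2 change of -0.35 ± 0.24. Its SiwiKD values lay below both LucKD values, which differed widely between themselves. SINE-1_BM, with 238 and 238 RPKM in SiwiKD libraries, 397 and 468 RPKM in MaelKD libraries, and 277 and 309 RPKM in LucKD libraries, did not pass either. Bm1-450bp rose by 0.50 ± 0.19, but not after trimmed-mean scaling (0.29), without LucKD replicate 2 (0.38) or without SiwiKD replicate 1 (0.42).

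No class is given for 274 entries. Of these 45 rose (16.4%) and 8 fell (2.92%), beside 24.3% and 3.06% of all entries, and the median log2 change was 0.01 (-0.15 after trimmed-mean scaling, where 34 rose and 31 fell). With a LucKD mean of at least 1 RPKM, 34 of 251 rose and 8 fell. Unclassified entries made up 11 of the 19 entries with at least 4-fold the LucKD mean, or 9 of 16 where that mean was at least 1 RPKM. These shares were near those of unclassified entries among all tested entries, 274 of 490 and 251 of 453. BmTE_RM1-644, 1045 bp, had 98.9 and 87.5 RPKM in SiwiKD libraries, 79.3 and 64.2 RPKM in MaelKD libraries, and 11.0 and 13.5 RPKM in LucKD libraries, the largest rise of all entries at 2.83 ± 0.19 on the log2 scale (limma, Benjamini-Hochberg adjusted p = 8.73e-13). MaelKD values were close below those of SiwiKD for this entry.

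BmTE_RM1-432 had 394 and 329 RPKM in SiwiKD libraries, 234 and 238 RPKM in MaelKD libraries, and 52.3 and 51.4 RPKM in LucKD libraries (log2 change 2.77 ± 0.19). BmTE_RM1-413 had 171 and 139 RPKM in SiwiKD libraries, 97.8 and 102 RPKM in MaelKD libraries, and 24.1 and 23.2 RPKM in LucKD libraries (log2 change 2.65 ± 0.18). Both were graded in the same order, SiwiKD, MaelKD, LucKD. BmTE_RM1-504 had 61.7 and 75.9 RPKM in SiwiKD libraries, 19.9 and 18.1 RPKM in MaelKD libraries, and 10.3 and 13.3 RPKM in LucKD libraries, and so stood apart mainly in SiwiKD. BmTE_RM6-2892 rose by 2.43 ± 0.25 and was uneven between SiwiKD libraries (33.3 and 15.4 RPKM, against 4.49 and 2.51 RPKM in LucKD libraries). The largest fall among unclassified entries, BmTE_RM1-468, had 4.32 and 5.07 RPKM in SiwiKD libraries, against 7.99 and 10.8 RPKM in LucKD libraries (-0.86 ± 0.22), and lost its call without LucKD replicate 2 (-0.66). The next falls, BmTE_RM1-577 (-0.76) and BmTE_RM1-236 (-0.71), had SiwiKD means of 0.790 and 1.95 RPKM, against LucKD means of 1.95 and 3.87 RPKM. BmTE_RM1-577 lost its call without LucKD replicate 1 (-0.97), LucKD replicate 2 (-0.56) or SiwiKD replicate 1 (-0.36), and BmTE_RM1-236 without LucKD replicate 1 (-0.47) or SiwiKD replicate 2 (-0.57). BmTE_RM1-102, the third highest entry of LucKD cells, had 397 and 439 RPKM in SiwiKD libraries, against 465 and 500 RPKM in LucKD libraries, and did not pass the test.

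Of the 103 tested entries with a name of their own rather than a library number, 41 rose (39.8%) and 4 fell (3.88%), beside 24.3% and 3.06% of all entries, with a median log2 change of 0.36 (29 rose and 6 fell after trimmed-mean scaling). By class, 18 of 33 named LTR elements rose and 3 fell (15 and 3 after scaling), 11 of 20 DNA elements rose (5 after scaling), 7 of 32 LINEs rose and 1 fell (6 and 2 after scaling), and 4 of 14 SINEs rose (3 after scaling). The shares of named LINEs (21.9%) and SINEs (28.6%) that rose were near that of all entries. The lone Penelope entry, BmTE_RM5-1758, had 7.71 and 8.26 RPKM in SiwiKD libraries, against 1.89 and 3.68 RPKM in LucKD libraries, a log2 change of 1.29 ± 0.26. None of the 6 DIRS entries passed the test as deposited (1 fell after scaling), and their log2 changes ran between -0.48 and -0.15. The W-linked marker W-Sakura had 0.970 and 0.971 RPKM in SiwiKD libraries, against 0.749 and 1.46 RPKM in LucKD libraries, which overlapped.

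The share of entries that rose is given here by length, as a description beside the 24.3% of all entries. Of entries up to 400 bp 15 of 113 rose (13.3%), of those over 400 and up to 900 bp 22 of 135 (16.3%), of those over 900 and up to 2300 bp 42 of 118 (35.6%), and of those above 2300 bp 40 of 124 (32.3%). In the same order 4, 7, 0 and 4 entries fell, and after trimmed-mean scaling 11, 18, 30 and 31 rose and 8, 15, 13 and 8 fell. Short entries hold fewer reads at the same RPKM, so their values are less precise.

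Small RNA bound to Flag-tagged Siwi in LucKD cells was set beside each entry's RNA change, as 2 control libraries of 4.81 and 1.76 M reads. As a description, the share of entries that rose was 4.96% (6 of 121) up to 10 RPM per kb and 40.6% (86 of 212) above 100 RPM per kb. Of 35 entries with up to 1 RPM per kb none rose and 4 fell, and of 86 with 1 to 10 RPM per kb 6 rose (6.98%). Of 157 with 10 to 100 RPM per kb 27 rose (17.2%), of 184 with 100 to 1000 RPM per kb 74 rose (40.2%), and of 28 above 1000 RPM per kb 12 rose (42.9%). After trimmed-mean scaling the rises in these 5 ranges were 0, 4, 22, 58 and 6. Across the 490 entries Spearman's rho with the log2 RNA change was 0.395 for control small RNA per kb and 0.225 for length, and 0.327 between small RNA per kb and length. The entries share libraries, depth and possibly reads, so these values describe the table only.

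The same counts follow by length and by class. Among entries over 900 bp, 0 of 19, 2 of 22, 18 of 61, 53 of 116 and 9 of 24 rose in order of increasing small RNA, and among entries up to 900 bp 0 of 16, 4 of 64, 9 of 96, 21 of 68 and 3 of 4. In unclassified entries the counts were 0 of 18, 3 of 59, 10 of 109, 30 of 81 and 2 of 7, and in classified entries 0 of 17, 3 of 27, 17 of 48, 44 of 103 and 10 of 21. After trimmed-mean scaling the rises were 0, 2, 15, 41 and 3 over 900 bp and 0, 2, 7, 17 and 3 up to 900 bp. They were 0, 2, 6, 24 and 2 in unclassified and 0, 2, 16, 34 and 4 in classified entries. Above 1000 RPM per kb the share did not rise further in entries over 900 bp, and elements there such as Pao, Mariner-2_BM and BmTE_RM5-571 did not pass the test. BmTE_RM5-571, a 9536 bp entry with 2910 RPM per kb, had 981 and 1024 RPKM in SiwiKD libraries, against 1252 and 988 RPKM in LucKD libraries.

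**Figure D4:**
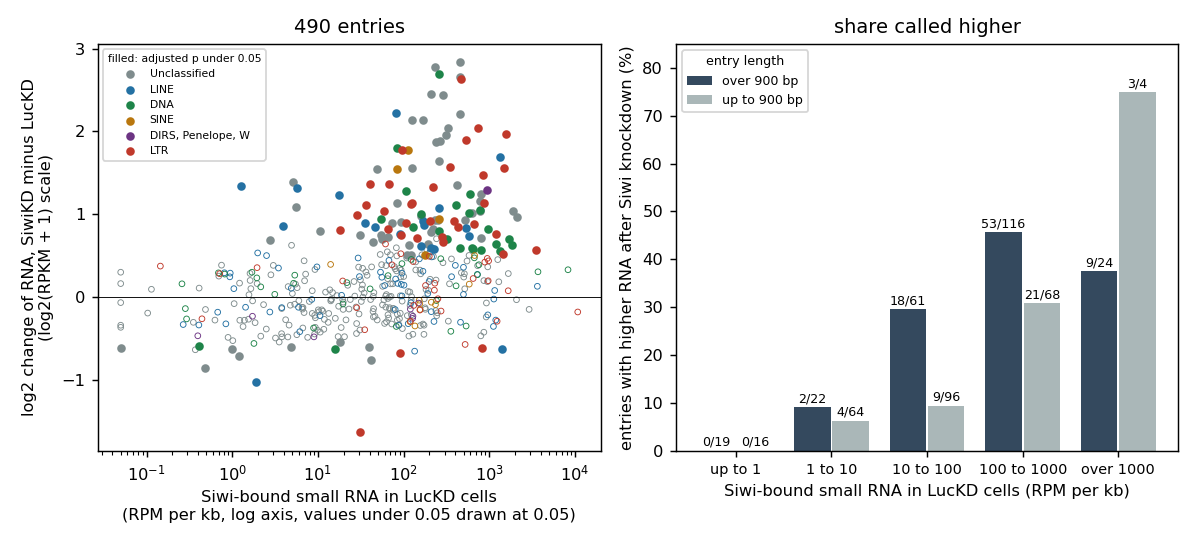
Left, log2 RNA change of 490 entries against control Siwi-bound small RNA (RPM per kb, log axis), filled where the adjusted p was under 0.05; right, percent of entries that rose in 5 ranges of that small RNA, for entries over and up to 900 bp, with counts above the bars. The share is 0 in both length groups at the lowest range and reaches 53 of 116 and 21 of 68 between 100 and 1000 RPM per kb; the last range holds only 24 and 4 entries.

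Counted in RPM of the RNA libraries, with no division by length, the gain was concentrated. The 119 entries that rose gained 9213 RPM in SiwiKD over LucKD means, and the 15 that fell had a net change of -328.5. The 5 largest gains, BmTE_RM1-42, BmTE_RM1-43, FUI, BmpiggyBac-MER85 and BmTE_RM1-432, made up 47.3% of that gain and the 10 largest 69.8%. By class, the 45 unclassified entries that rose held 47.6% of the gain, the 31 LTR entries 36.4%, the 21 DNA entries 9.36%, the 17 LINE entries 4.43% and the 4 SINE entries 2.12%. The net change of the entries not called was -1049 RPM, or 69.4 without BmTE_RM5-571.

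BmTE_RM1-42 had 732 and 511 RPKM in SiwiKD libraries, 729 and 467 RPKM in MaelKD libraries, and 240 and 160 RPKM in LucKD libraries. BmTE_RM1-43 had 455 and 354 RPKM in SiwiKD libraries, 444 and 369 RPKM in MaelKD libraries, and 121 and 97.4 RPKM in LucKD libraries. The 2 entries moved alike, with the first library of each group higher. Whether they share reads was not tested.

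LTR entries took 0.799% and 0.676% of the recovered library totals in SiwiKD libraries, against 0.368% and 0.486% in LucKD libraries, a ratio of means of 1.72. DNA transposons took 0.297% and 0.242% in SiwiKD libraries, against 0.163% and 0.197% in LucKD libraries. The ratio was 1.497 for DNA transposons, 1.17 for LINEs and 1.22 for unclassified entries, beside 1.313 for all listed entries together. For SINEs the ratio was 1.11 over reads, and below 1 when RPKM were summed instead (0.852). Over reads, LINEs, unclassified entries and SINEs thus grew less than all listed entries together. The ratios of unclassified and of all entries include the uncalled BmTE_RM5-571, at 9561 RPM in SiwiKD and 10679.5 RPM in LucKD means. That entry held a large part of these reads, and the place of unclassified entries in this order depends on it. Over RPKM sums the ratio was 2.076 for LTR, 1.409 for DNA, 1.255 for LINE and 1.378 for unclassified entries, beside 1.344 for all.

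**Figure D5:**
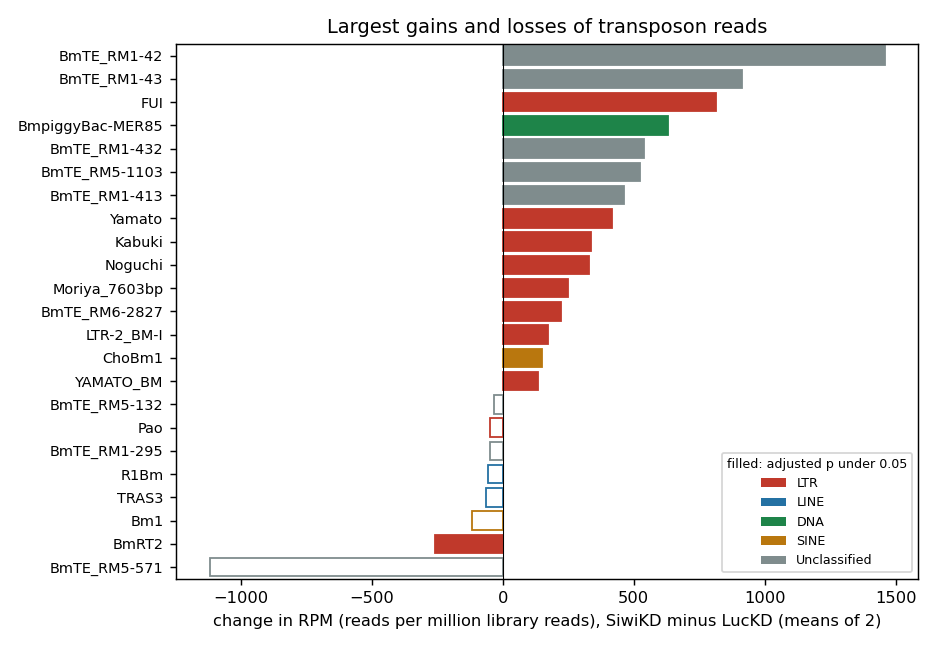
Change in RPM of the RNA libraries (SiwiKD minus LucKD means, 2 libraries each) of the entries with the largest gains and losses, coloured by class, filled where the adjusted p was under 0.05. BmTE_RM1-42 gained 1459 and FUI 816, while BmTE_RM5-571 changed by -1118 without passing the test.

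Set against MaelKD rather than LucKD, 92 entries (18.8%) were higher and 8 (1.63%) lower in SiwiKD by the same fit. The comparisons share the SiwiKD libraries, so values are given side by side. Kabuki was higher in SiwiKD than in MaelKD by 2.12 ± 0.19 on the log2 scale, BmTE_RM6-2056 by 2.30 ± 0.22, BmTE_RM6-2827 by 2.29 ± 0.19 and Noguchi by 1.90 ± 0.19 (limma, Benjamini-Hochberg adjusted p between 2.42e-10 and 8.18e-09). BmTE_RM1-42 (0.07 ± 0.24), BmTE_RM1-43 (-0.01 ± 0.21), Neet (0.25 ± 0.22), BmTE_RM6-5630 (0.11 ± 0.19) and BmTE_RM1-644 (0.38 ± 0.19) did not pass that test. TE-1_BM had 29.6 and 32.3 RPKM in SiwiKD libraries, 12.2 and 11.1 RPKM in MaelKD libraries, and 19.2 and 20.1 RPKM in LucKD libraries, so that its MaelKD values lay below control. Its rise over LucKD (0.63 ± 0.18) lost its call after trimmed-mean scaling (0.42), without LucKD replicate 1 (0.60) and without SiwiKD replicate 2 (0.57). SINE-1_BM was lower in SiwiKD than in MaelKD by the same test (-0.85 on the log2 scale, limma, Benjamini-Hochberg adjusted p = 0.00255).

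At the minimum of 1 RPKM, BmRT24 (1.001), BmTE_RM1-259 (1.003) and BmTE_RM6-5280 (1.003) were just inside and BmTE_RM6-1248 (0.995), BmTE_RM6-921 (0.991) and BmTE_RM1-239 (0.964) just outside. In 37 tested entries the LucKD mean was under 1 RPKM, so that they entered through the knockdown libraries, and 20 of them rose. Over the 453 others, 99 rose and 15 fell. The counts by superfamily, by name, by length and by range of small RNA include the 37 entries.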

How the data were processed

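RNA values were deposited by the authors as RPKM per transposon entry, per the file headers, and the small RNA values were deposited as RPM. Per the labels' protocols, RNA libraries came from poly-A RNA, and small RNA of 22 to 35 nt was taken from Flag-Siwi immunoprecipitates. The tools, per the submitters' processing notes, include STAR 2.7.9a, Bowtie 1.3.0, Trim Galore, cutadapt 3.1, bedtools and SAMtools. Roles, build, and the treatment of strand and of multiply matching reads are, for these data, not given in the sources used here, so values of similar entries may share or divide reads.

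Library totals, entry lengths and reads were recovered from the steps of the values: all 978 entries above 0 in RNA (100%) and all 10296 small RNA values came out whole within 0.001 reads. The length of Bm1-450bp came out as 444.

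RPKM were tested as log2(RPKM + 1), which understates changes of low entries, with limma 3.58.1 (lmFit, eBayes with a trend) in R 4.3.3 over all 6 RNA libraries and 490 entries, two-sided, with Benjamini-Hochberg adjustment at 0.05. The script was tested on simulated data. edgeR 4.0.16 on the recovered reads was an alternative. Control small RNA is the mean RPM of the 2 LucKD libraries per kilobase of entry. Its ranges were chosen after seeing the data. Entries named are, per class, up to 5 largest rises and 3 largest falls, the 5 highest in LucKD, and elements not named BmTE_. BmTE_RM1-42, BmTE_RM1-43, BmTE_RM5-1103, BmTE_RM5-1758 and the entries at the minimum were added after their values were seen. The members and lists were chosen with earlier results of these data known. Figures used Python 3.11.15 with matplotlib 3.10.9.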

Additional observations from a re-analysis of the deposited data

How the results depend on the processing

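Against LucKD, 134 entries were called. A pseudocount of 0.1 RPKM and edgeR on recovered reads (139 calls, 126 higher and 13 lower) stayed within 1.5 times of each count. Without a filter on low values 74 entries were called (72 higher, 2 lower). Under a minimum mean of 10 RPKM 63 were called (56 higher, 7 lower). These settings changed both the entries in the adjustment and those from which limma estimated the spread. Trimmed-mean scaling gave 44 lower, and a fit of the 4 compared libraries alone 5 lower. Leaving out 1 library gave 79 to 122 higher and 5 to 21 lower; a lone library was assumed to vary like the other groups. SiwiKD against MaelKD gave 100 calls, 30 without the filter, 42 with at least 10 RPKM, 59 after trimmed-mean scaling and 34 to 85 without 1 library. The ratio of SINE reads, 1.11, was 0.852 over RPKM sums. The cause of these shifts was not tested.

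A replicate block gave 148 calls. Same-numbered libraries barely deviated together (correlation 0.045 between SiwiKD and LucKD), so the numbers were not taken as pairs. Of 66 named entries called, 35 kept their call under every setting that held them, and no named entry reversed. The settings given beside single entries are not a full list. Of the 66 calls, 15 were lost in the fit of the 4 compared libraries and 28 without the filter. A pseudocount of 0.1 RPKM lost 2 (BmRT6 and YAMATO_BM), and edgeR lost 4 (Yamato, YAMATO_BM, BmTE_RM5-3672 and BmTE_RM1-577). At the same RPKM, a short entry rests on fewer reads than a long one.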

Other observations

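Entries outside the minimum were looked at as values only. Of 488 entries with RNA reads but a mean under 1 RPKM, both SiwiKD libraries lay above both LucKD libraries in 113 (23.2%) and below both in 56 (11.5%). The first pattern was seen in 22 of 55 LTR, 26 of 89 LINE, 8 of 28 DNA, 1 of 5 SINE and 54 of 304 unclassified entries. These values rest on few reads and were not tested.

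A further 738 entries had no RNA read in any of the 6 RNA libraries, 626 of them unclassified. Control cells still held Siwi-bound small RNA for 395 of these. Over all 738 the median was 0.104 RPM, against 66.5 RPM for the 490 tested entries, and 5 of the 738 exceeded 100 RPM. The median of 0.104 RPM is the level of a lone read in the larger control library. These RPM are not divided by length. BmTE_RM1-507, unclassified, had the most at 293 RPM, followed by BmTE_RM6-3257 at 181 RPM, BmTE_RM5-193 at 163 RPM, the RTE-BovB entry BmTE_RM1-463 at 148 RPM and BmTE_RM6-8932 at 133 RPM.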
